A study of Homo sapiens with 10 samples.

Results

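Ion channel genes of excitable cells were examined in the human synovial sarcoma cell line HS-SY-II during exposure to a degrader of the bromodomain protein BRD9. The genes were the protein-coding members of the voltage-gated sodium (SCN), voltage-gated calcium (CACN), potassium (KCN), hyperpolarization-activated (HCN), acid-sensing (ASIC) and transient receptor potential (TRP) families, together with the sodium leak channel NALCN and its partners UNC79 and UNC80. They were chosen by symbol and by level, a gene being kept when its mean over the 10 libraries reached 1 CPM (the count of a gene relative to the total of its library). Of 63140 gene identifiers, 222 had a matching symbol, 170 of these were protein-coding, and 55 reached the level. Another 115 protein-coding genes fell short, 42 of them with no count in any library. The genes were thus selected on their mean level over all groups and not on a difference between groups. Just outside lay CACNA2D2 at 0.850 CPM and KCNRG at 0.888 CPM, and just inside lay KCNMB4 at 1.15, KCNK17 at 1.19 and CACNA1C at 1.22 CPM. By mean of the DMSO libraries, 5 of the 55 genes (CACNA1C, KCNJ2, KCNMB4, SCN8A and TRPM5) were under 1 CPM, so their place among the 55 rests on treated libraries.

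HS-SY-II cells received 100 nM WA-68, a proteolysis-targeting chimera directed at BRD9, for 12, 24, 48 or 96 h, or the DMSO vehicle. Poly(A) RNA of 2 biological replicates in each of the 5 groups gave 10 libraries, all from 1 cell line without other genotypes. Total counts ran from 7349744 to 13200051. When the DMSO cultures were harvested is not stated, so treatment and time in culture cannot be told apart. BRD9 mRNA measured 104.1 ± 5.61 CPM (SD, n = 2) in DMSO and was not called at any time (edgeR adjusted p from 0.0935 to 0.502). The transcript level does not measure a degrader that acts on protein. Of 16 markers of synovial sarcoma, 12 were expressed highly enough to test, and their summed level ran from 2030 to 2377 CPM over the 10 libraries. DMSO replicate 2 and 96 h replicate 2 stood apart from the other 8 libraries on the second principal component (scores of -24.2 and -26, against -0.71 to 14.4), and DMSO replicate 2 differed from replicate 1 with gene GC content (Spearman correlation 0.571 across 15694 tested genes, which are not independent replicates, against -0.292 to 0.289 for the pairs of the other 4 groups). Summed over the 55 channel genes, the level was 2166 and 2480 CPM in the DMSO libraries and 2188 to 2446 CPM in the treated ones.

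Voltage-gated and leak channels let ions cross the membrane and so set the resting potential and the action potential of neurons, muscle and endocrine cells. A channel usually joins a pore-forming subunit to auxiliary subunits that govern its traffic and gating. Many of these genes are kept low outside the nervous system by the repressor REST, which binds an RE1 element. Synovial sarcoma carries an SS18::SSX fusion protein that enters BAF chromatin remodelling complexes, and BRD9 is a subunit of the non-canonical form of that complex.

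The promoter sequences below belong to the genes called at all 4 times whose promoter window begins outside annotated exons. They are shown because these genes had already moved at 12 h. Each is the reference sequence before the RefSeq gene start on GRCh38.p14, written 5′ to 3′ on the strand of the gene. They lie at chr2:209771582-209771831 on the plus strand (UNC80), chr2:166376002-166376194 on the minus strand (SCN9A), chr7:82443957-82444206 on the minus strand (CACNA2D1) and chr12:50057920-50058169 on the plus strand (ASIC1). For SCN9A, only the first 193 of the 250 bases come before an annotated exon, and only these are shown. The ASIC1 window lies inside the GENCODE gene, which starts at chr12:50057548. Capitals mark the GC box (GGGCGG) and, in UNC80, the left part of an RE1 element (TTCAGCACC), each on either strand.

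UNC80: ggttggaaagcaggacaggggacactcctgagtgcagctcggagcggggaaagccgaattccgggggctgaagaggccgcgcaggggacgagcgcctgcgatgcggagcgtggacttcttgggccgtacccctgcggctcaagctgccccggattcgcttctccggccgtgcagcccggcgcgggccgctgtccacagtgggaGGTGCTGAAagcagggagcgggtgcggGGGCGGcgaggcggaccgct

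SCN9A: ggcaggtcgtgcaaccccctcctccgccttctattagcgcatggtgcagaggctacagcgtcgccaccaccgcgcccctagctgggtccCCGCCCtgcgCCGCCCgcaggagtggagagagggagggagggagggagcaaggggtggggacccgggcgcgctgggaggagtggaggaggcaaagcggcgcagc

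CACNA2D1: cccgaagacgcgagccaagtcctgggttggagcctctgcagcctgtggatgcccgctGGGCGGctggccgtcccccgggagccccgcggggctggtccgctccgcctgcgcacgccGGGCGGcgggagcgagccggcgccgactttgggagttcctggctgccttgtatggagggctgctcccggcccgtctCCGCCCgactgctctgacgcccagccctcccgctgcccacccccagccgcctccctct

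ASIC1: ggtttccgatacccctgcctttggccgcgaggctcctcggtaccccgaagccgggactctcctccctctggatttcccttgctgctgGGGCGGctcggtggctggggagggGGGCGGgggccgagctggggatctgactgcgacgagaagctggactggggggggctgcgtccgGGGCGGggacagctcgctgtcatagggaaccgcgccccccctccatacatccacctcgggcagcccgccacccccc

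The UNC80 window holds 1 GC box at bases 231 to 236 and the RE1 left part, on the opposite strand, at bases 204 to 212. SCN9A has 2 GC boxes, and CACNA2D1 and ASIC1 have 3 each. Over the RefSeq promoter table, 40 of the 55 genes had a window, and motifs and CpG dinucleotides were counted in its 250 bases before the gene start. A GC box was in 32 of the 40 (80%), against 56% of 15842 protein-coding promoters. The RE1 left part was in 1 of the 40, UNC80, and in 0.29% of all promoters. The right part (GGACAGCGC) was in none of the 40 and in 0.619% of all. Of the 40, 1 held the E-box CACGTG (7.84% of all promoters) and none held the AP-1 site TGANTCA (5.04%) or the cyclic AMP element TGACGTCA (2.32%). All motifs were sought on both strands, and the GC box and the other motifs do not overlap in the windows printed. The number of CpG dinucleotides had a median of 25.5 in the 40 windows and 17 in all. It was 28 (range 22 to 39) in the 6 windows of genes called higher and 19 (17 to 46) in the 4 of genes called lower. In the 30 windows of genes not called it was 24.5 (1 to 51). Of the windows of genes called lower, those of KCNMA1, KCNQ5 and SCN4B begin inside an annotated exon. The 3 ranges of CpG number overlap, and a difference between them was not tested.

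The cells expressed a channel set led by T-type calcium channels and a sodium channel beta subunit. Levels were compared between genes per kilobase of exon, as the mean over 10 libraries. CACNA1H and CACNA1G, the pore subunits of the Cav3.2 and Cav3.1 low-threshold calcium channels, measured 46.5 and 33.7 CPM per kb. SCN4B, the beta-4 subunit, measured 44.0 CPM per kb, while SCN9A (Nav1.7), the most abundant pore-forming sodium channel gene of the 55, stood at 0.800 CPM per kb. TRPC4AP and TRPM7 led the TRP genes at 26.7 and 15.5 CPM per kb. TRPC4AP encodes an associated protein and not a channel, and TRPM7 is a magnesium-permeable channel fused to a kinase. HCN2, a pacemaker channel, measured 22.9 CPM per kb. KCNJ12, an inward rectifier, was among the more abundant potassium channel genes at 9.79 CPM per kb. ASIC1 and ASIC4 measured 4.92 and 1.54, and UNC80 0.458 CPM per kb. The sodium family was otherwise sparse, since SCN1A, SCN2A and SCN3A held 1, 3 and 1 counts over all 10 libraries and SCN7A held 0.

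**Figure D1:**
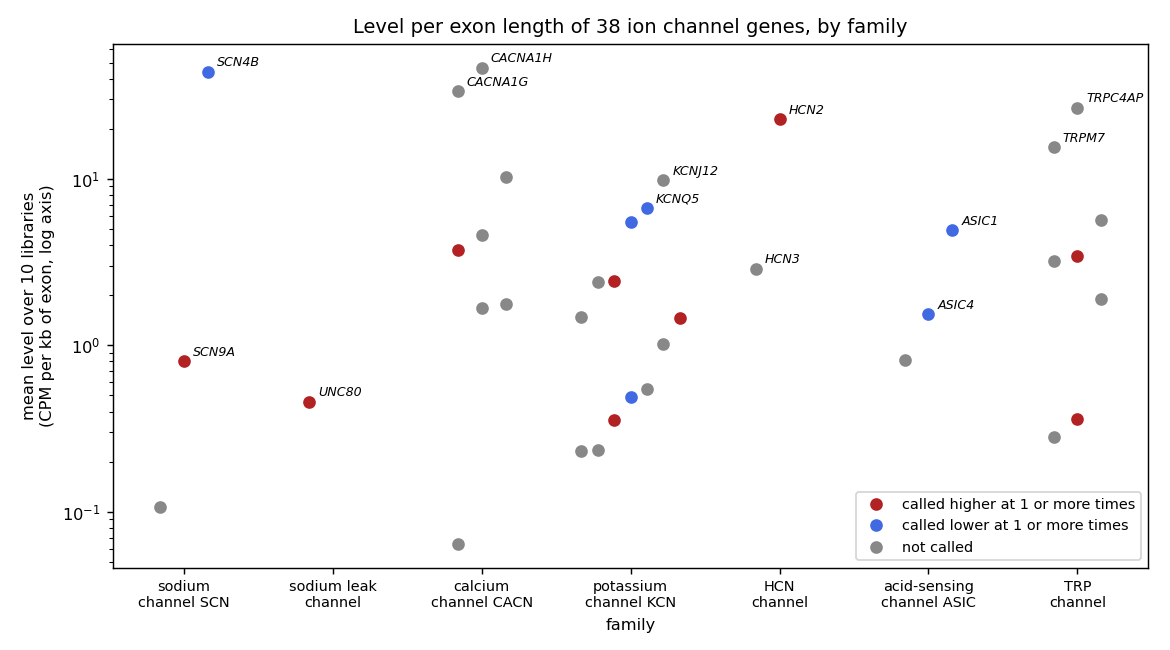
Mean level over 10 libraries of the 38 ion channel genes named in the text, in CPM per kb of exon on a log axis, by family, with points coloured by whether the gene was called higher, lower or not at all against DMSO. The upper genes shown in each family are labelled, with CACNA1H at 46.5 and SCN4B at 44.0 CPM per kb at the top, and 23 of the 38 points are grey because those genes were not called.

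Against DMSO, 17 of the 55 channel genes were called at 1 or more times, 11 higher and 6 lower, and no gene was called in both directions. A call is an edgeR quasi-likelihood adjusted p under 0.05 over the 16382 genes tested, of which 16.6% were called at 1 or more times. At 12 h, 3 channel genes were called higher and 4 lower, against 1.23% and 1.92% of all tested genes and 3.15% in both directions together. At 24 h, 4 were higher and 4 lower, with a background of 1.34% and 2.25%, together 3.6%. By 48 h, 9 were higher and 3 lower, with a background of 4.01% and 5.38%, together 9.39%. By 96 h, 10 were higher and 5 lower, with a background of 6.14% and 6.86%, together 13%. In percent of the 55, the higher calls came to 5.45%, 7.27%, 16.4% and 18.2% at the 4 times, and the lower calls to 7.27%, 7.27%, 5.45% and 9.09%. The share of lower calls at 48 h was near the background. TRPM5, whose mean in DMSO was under 1 CPM, was among the higher calls at 48 and 96 h.

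As a set, the 55 genes stayed near the median of all genes at 12 and 24 h and lay above it at 48 and 96 h. Their median log2 fold change was 0.00351 at 12 h and -0.00978 at 24 h, where that of all genes was -0.00212 and -0.000851. It was 0.175 at 48 h and 0.181 at 96 h, with -0.00704 and -0.00826 over all genes. These medians include the 5 genes whose mean in DMSO was under 1 CPM and whose place rests on treated libraries. How far the later medians rest on those genes was not tested. Leaving out both DMSO replicate 2 and 96 h replicate 2 gave 9, 11, 15 and 16 called channel genes at the 4 times, and 41 of the 46 calls that the channel genes had over the 5 comparisons were kept. Those lost included SCN4B at 24 h (adjusted p = 0.0623), ASIC1 at 48 h (0.083), and KCNAB3 (0.305) and TRPV4 (0.166) at 96 h. Scaling by library totals alone changed the balance over all genes, to 287 higher and 173 lower after 12 h, 301 and 205 after 24 h, 826 and 543 after 48 h, and 1228 and 812 after 96 h, where TMM scaling gave 201 and 315, 220 and 369, 657 and 882, and 1006 and 1123. None of the 46 calls changed direction under any of these alternatives.

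**Figure D2:**
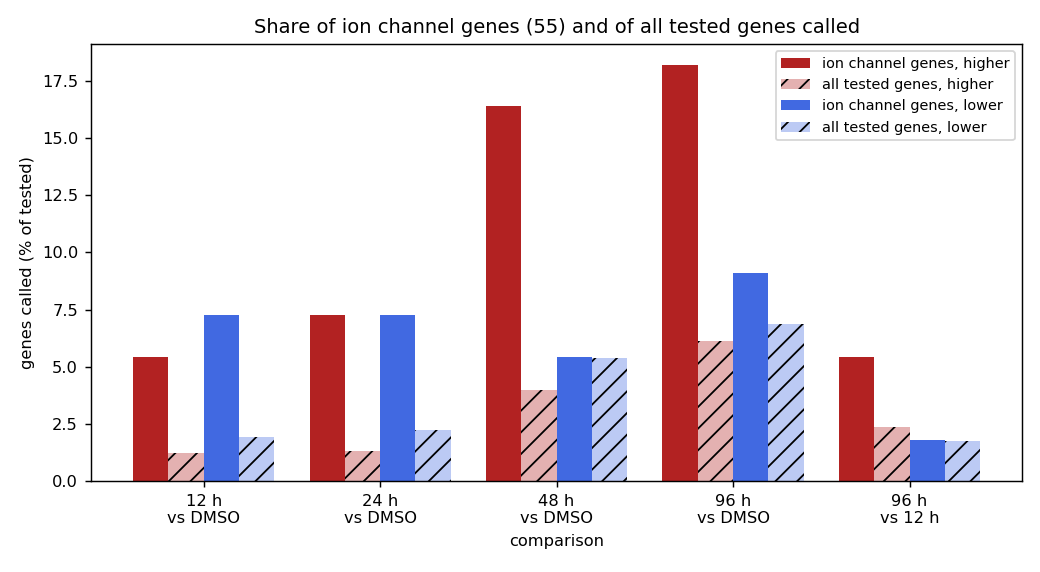
Percent of the 55 ion channel genes (solid bars) and of all 16382 tested genes (hatched bars) called higher (red) or lower (blue) in each comparison at an edgeR adjusted p under 0.05. The share of channel genes called higher rose from 5.45% at 12 h to 18.2% at 96 h against DMSO, beside 1.23% and 6.14% of all genes. The 96 h share includes TRPM5, whose mean in DMSO was under 1 CPM.

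The 6 genes called at all 4 times were UNC80, SCN9A and CACNA2D1, higher, and ASIC4, ASIC1 and KCNMA1, lower. Of all tested genes, 1.62% were called at all 4 times. The joint test of the 4 times called 16 of the 55, with a background of 10.9%. These were 14 of the 17 genes above together with KCNH3, a potassium channel of the ether-a-go-go family (adjusted p = 0.0242), and KCNJ5, a subunit of G protein-gated inward rectifiers (adjusted p = 0.0392). By role, 9 of 41 pore-forming members were called higher and 4 lower, and of 14 auxiliary or associated members 2 were higher and 2 lower. In either direction, 16.6% of all tested genes were called at 1 or more times, and a difference between the roles was not tested.

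**Figure D3:**
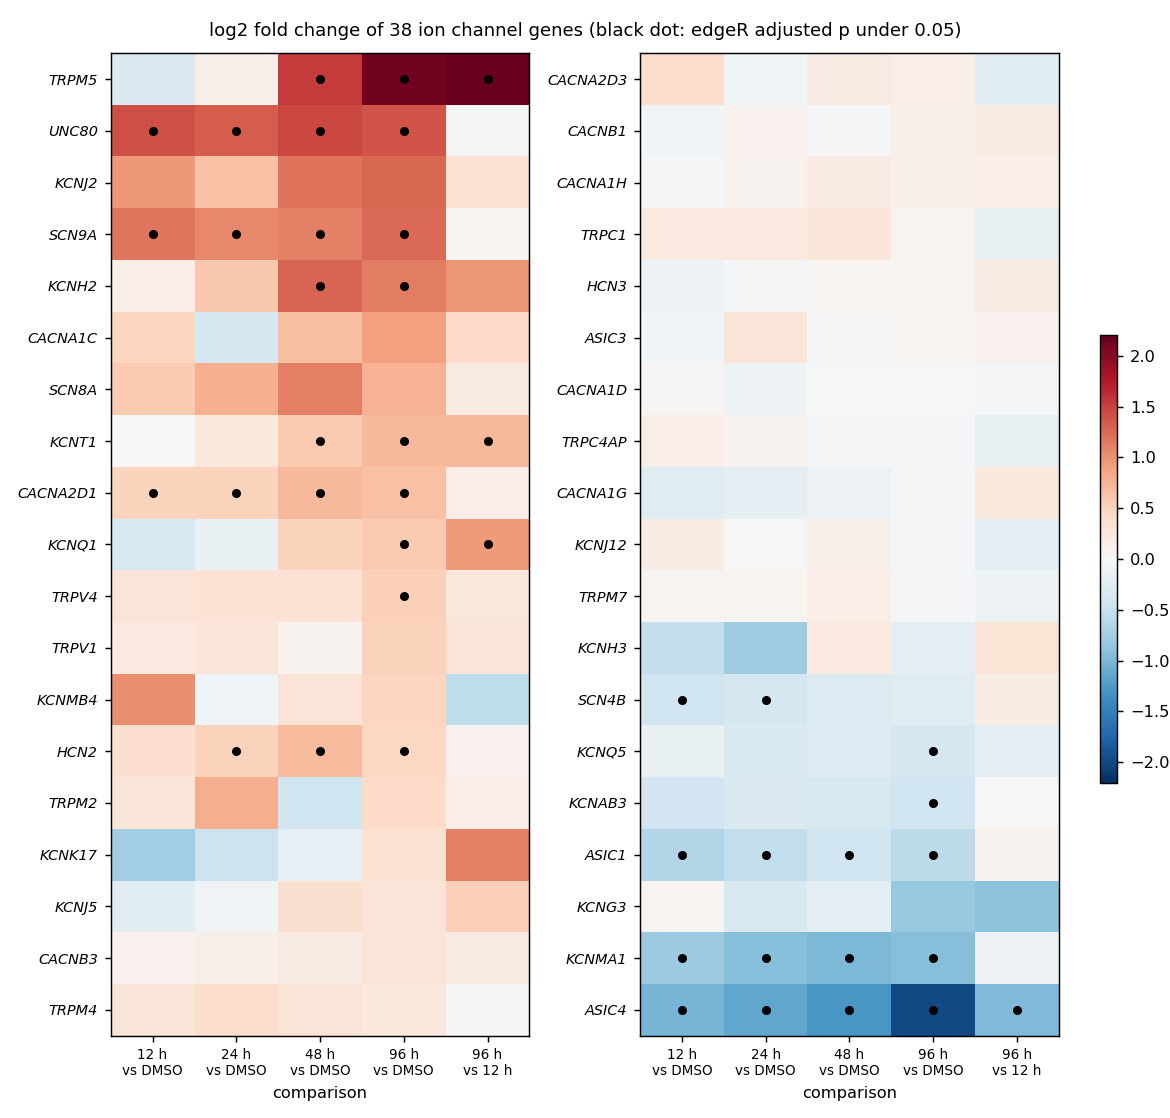
Log2 fold change of the 38 ion channel genes named in the text (vertical axis, ordered by the value at 96 h against DMSO) in 5 comparisons (horizontal axis), from blue for lower to red for higher, with a black dot where the edgeR adjusted p was under 0.05. UNC80, SCN9A and CACNA2D1 carry dots from 12 h, whereas TRPM5, KCNH2 and KCNT1 carry them from 48 h.

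Among sodium channel genes, the pore SCN9A rose and the beta subunit SCN4B fell. SCN9A encodes Nav1.7, a channel of sensory and sympathetic neurons, on the minus strand of GRCh38 chr2:166195185-166376001. It measured 5.98 and 4.96 CPM in the DMSO libraries, 11.5 and 13.8 after 12 h, 11.2 and 11.8 after 24 h, 10.6 and 13.4 after 48 h, and 12.6 and 13.9 after 96 h. All 8 treated libraries were above both DMSO libraries, with little order among the times. The log2 fold change was 1.18 (SE 0.187, adjusted p = 0.000535), 1.05 (SE 0.189, adjusted p = 0.00194), 1.11 (SE 0.190, adjusted p = 0.000601) and 1.25 (SE 0.186, adjusted p = 6.32e-05) at the 4 times. The 24 h call was lost without 24 h replicate 2 (adjusted p = 0.0501) and the other 3 held without each library in turn.

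SCN4B encodes the beta-4 subunit, which takes part in resurgent sodium current. SCN4B measured 273.1 and 327.1 CPM in DMSO, 228.6 and 215.6 after 12 h, 235.6 and 222.9 after 24 h, 256.6 and 229.4 after 48 h, and 260.0 and 237.3 after 96 h. Both DMSO libraries were above every treated library, and the DMSO libraries were themselves far apart. Its log2 fold change was -0.43 at 12 h (SE 0.0977, adjusted p = 0.0136) and -0.39 at 24 h (SE 0.0976, adjusted p = 0.0271). At 48 and 96 h the values were -0.30 (adjusted p = 0.0513) and -0.27 (adjusted p = 0.0717). The 12 h call was lost without DMSO replicate 2 (-0.30, adjusted p = 0.117), 12 h replicate 1 (0.113) or 12 h replicate 2 (0.217). The 24 h call was lost without DMSO replicate 2 (-0.25, adjusted p = 0.198), either 12 h replicate (0.0524 and 0.0518) or either 24 h replicate (0.147 and 0.309), and with library totals alone (0.0713). SCN8A (Nav1.6) was not called and reached a log2 fold change of 1.11 at 48 h (adjusted p = 0.0823).

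UNC80, a scaffold that binds the sodium leak channel NALCN together with UNC79, rose to between 2.52 and 2.77 times the DMSO level. Its gene lies on the plus strand at chr2:209771993-209999300. It measured 3.65 and 4.02 CPM in DMSO, 9.28 and 11.1 after 12 h, 9.54 and 9.69 after 24 h, 10.4 and 10.7 after 48 h, and 10.8 and 8.98 after 96 h. The lowest treated library was more than double the highest DMSO library. The log2 fold change was 1.42 (SE 0.203, adjusted p = 0.000195) at 12 h, 1.33 (SE 0.204, adjusted p = 0.000416) at 24 h, 1.47 (SE 0.203, adjusted p = 7.04e-05) at 48 h and 1.39 (SE 0.203, adjusted p = 4.91e-05) at 96 h. These 4 calls held without each library in turn. The pore itself, NALCN, had 0 counts in all 10 libraries, which allows a level of up to 0.0326 CPM over the libraries together (3 counts, counting error only). UNC79 had 25 counts in all, between 0 and 7 per library.

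Genes near UNC80 were listed after its values had been seen. Of the 7 tested genes within 300 kb, UNC80 included, 4 were called higher at all 4 times, 3 of them other than UNC80. In either direction, 1.62% of all tested genes were called at all 4 times. UNC80 was picked for its calls, so its own part in this count was fixed beforehand. MAP2, which encodes a microtubule-associated protein of dendrites and starts at -347.9 kb from the UNC80 start, rose from 34.1 ± 0.362 CPM in DMSO to 59.5 ± 5.19 at 12 h and 90.2 ± 1.06 at 96 h (SD, n = 2). Its log2 fold change was 0.80 (SE 0.0989) at 12 h and 1.40 (SE 0.0967) at 96 h, and its calls held without each library in turn. ACADL, a mitochondrial acyl-CoA dehydrogenase, had log2 fold changes of 0.84, 0.69, 0.69 and 0.62 at the 4 times. KANSL1L, a paralogue of a subunit of the NSL histone acetyltransferase complex, had 0.49, 0.48, 0.54 and 0.56. The ACADL calls were lost at 24 h without 24 h replicate 1 or 2 (adjusted p = 0.0744 and 0.0885), at 48 h without 48 h replicate 2 (0.0684) and at 96 h without 96 h replicate 1 (0.0752). The KANSL1L calls were lost at 12 h without DMSO replicate 2 or 12 h replicate 2 (0.133 and 0.487), at 24 h without DMSO replicate 2, 24 h replicate 1 or 24 h replicate 2 (0.136, 0.105 and 0.288), and at 48 h without 48 h replicate 2 (0.0641). RPE, an enzyme of the pentose phosphate pathway between UNC80 and KANSL1L, was not called (-0.19 at 96 h, adjusted p = 0.293), nor were 2 non-coding genes within KANSL1L.

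**Figure D4:**
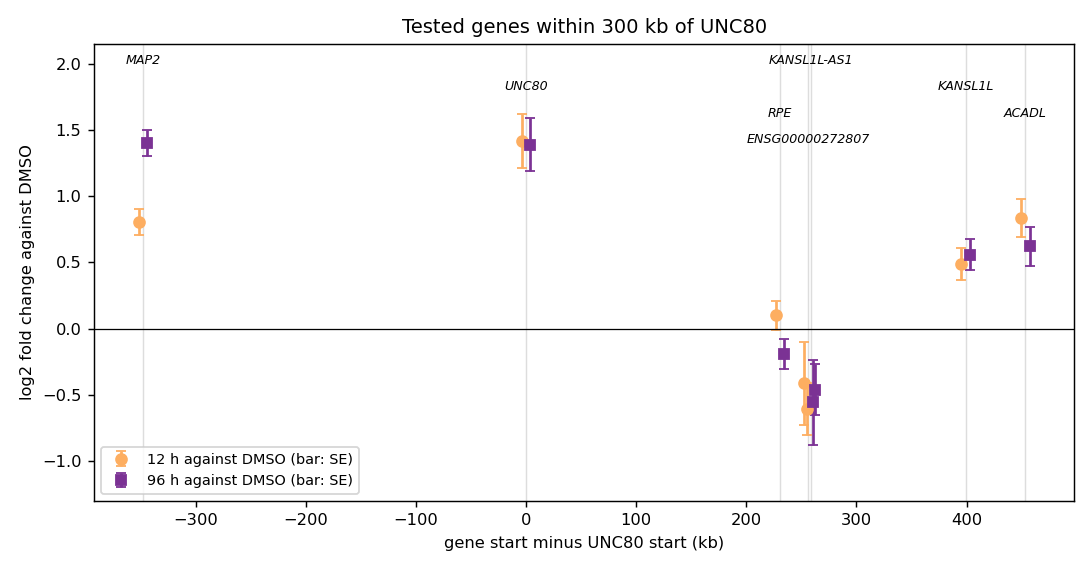
Log2 fold change against DMSO at 12 h (circles) and 96 h (squares), with SE bars, of the tested genes within 300 kb of the ends of UNC80, placed by the distance of each gene start from the UNC80 start in kb. MAP2, UNC80, KANSL1L and ACADL lie above 0 at both times, and RPE and the 2 non-coding genes KANSL1L-AS1 and ENSG00000272807 were not called.

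Among voltage-gated calcium channel genes, 1 of 8 (12.5%) was called, a share below the 16.6% of all tested genes. CACNA2D1 encodes alpha-2/delta-1, an extracellular auxiliary subunit that raises channel number at the membrane and binds gabapentin. CACNA2D1 measured 24.6 and 23.5 CPM in DMSO, 32.9 and 35.3 after 12 h, 30.3 and 36.9 after 24 h, 37.3 and 41.9 after 48 h, and 40.8 and 33.8 after 96 h. All 8 treated libraries lay above both DMSO libraries. Its log2 fold changes were 0.50 (SE 0.127, adjusted p = 0.0297), 0.48 (SE 0.127, adjusted p = 0.0329), 0.71 (SE 0.126, adjusted p = 0.00078) and 0.64 (SE 0.126, adjusted p = 0.0011). The 48 and 96 h calls held without each library in turn. The 12 h call was lost without DMSO replicate 2 (adjusted p = 0.0794), 12 h replicate 1 (0.135) or 12 h replicate 2 (0.274), and under DESeq2 (0.0533). The 24 h call was lost without DMSO replicate 2 (0.0826), 12 h replicate 1 (0.0502), 24 h replicate 1 (0.0508) or 24 h replicate 2 (0.483), and under DESeq2 (0.0551).

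The abundant pore subunits CACNA1H and CACNA1G were not called. CACNA1G lay furthest from DMSO at 12 h, at -0.27 (95% interval -0.465 to -0.0664, edgeR adjusted p = 0.152). At 24 h it had -0.21 (-0.404 to -0.00654, adjusted p = 0.283). At 96 h against DMSO, CACNA1H had a log2 fold change of 0.10 (95% interval -0.0937 to 0.303) and CACNA1G -0.03 (-0.226 to 0.171). Both intervals exclude a change of the size seen for CACNA2D1. The beta-3 subunit CACNB3 had 0.28 (0.0572 to 0.509, adjusted p = 0.0921). The remaining 4 genes, CACNB1, CACNA2D3 and the L-type pores CACNA1D and CACNA1C, were not called either.

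Potassium channel genes moved in both directions, with 4 of 28 called higher and 3 lower, together 25%, where 16.6% of all tested genes were called at 1 or more times. KCNMA1, the pore of the large-conductance calcium-activated (BK) channel, was called lower at all 4 times. It measured 29.8 and 25.5 CPM in DMSO, 15.8 and 16.1 after 12 h, 14.8 and 14.4 after 24 h, 12.2 and 15.9 after 48 h, and 12.3 and 17.5 after 96 h. No treated library reached the lower DMSO library. It fell by 0.81 (SE 0.153, adjusted p = 0.00336), 0.93 (SE 0.155, adjusted p = 0.0009), 0.99 (SE 0.157, adjusted p = 0.000286) and 0.93 (SE 0.156, adjusted p = 0.000219) on the log2 scale at the 4 times. The 12 h call was lost without 12 h replicate 1 (adjusted p = 0.0756) or 2 (0.0578), and the later calls held without each library in turn.

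KCNT1 was first called higher at 48 h and KCNQ1 at 96 h. KCNT1, a sodium-activated potassium channel, measured 14.5 and 13.5 CPM in DMSO, 15.7 and 12.5 after 12 h, 16.7 and 16.5 after 24 h, 20.7 and 21.2 after 48 h, and 25.0 and 20.6 after 96 h. The 12 h libraries lay on either side of the DMSO libraries and those at 24, 48 and 96 h were above both. Its log2 fold change was 0.57 (SE 0.145, adjusted p = 0.0131) at 48 h and 0.71 (SE 0.142, adjusted p = 0.00129) at 96 h. The 96 h call held without each library, and the 48 h call was lost without DMSO replicate 2 (0.0511), 48 h replicate 1 (0.0679) or 48 h replicate 2 (0.1).

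KCNQ1, a slowly activating channel of heart and epithelia, measured 8.94 and 10.6 CPM in DMSO, 8.16 and 6.89 after 12 h, 10.2 and 7.53 after 24 h, 14.0 and 13.3 after 48 h, and 13.9 and 15.3 after 96 h. The 12 h libraries were below both DMSO libraries and the 48 and 96 h libraries above them. Its log2 fold change was 0.58 at 96 h (SE 0.170, adjusted p = 0.0237), and this call was lost without DMSO replicate 1 (0.203) or 96 h replicate 2 (0.115), and under DESeq2 (0.0841). KCNQ1 lies on the plus strand at chr11:2444684-2849110 and overlaps KCNQ1OT1 on the opposite strand, a long non-coding RNA that measured 1112 ± 19.5 CPM in DMSO, 1070 ± 45.1 after 12 h, 1354 ± 170 after 48 h and 1209 ± 117 after 96 h (SD, n = 2). In the comparisons where KCNQ1 was called, KCNQ1OT1 was not, with a log2 fold change of 0.12 at 96 h against DMSO (adjusted p = 0.425) and 0.18 at 96 h against 12 h (adjusted p = 0.305). KCNQ1OT1 was called at 48 h (0.28, adjusted p = 0.0464), a call kept in 3 of the 10 fits that left out 1 library. The labels call the libraries stranded, but the strand setting used for counting is not given in the sources used here, so reads of KCNQ1 and KCNQ1OT1 cannot be told apart.

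Other called potassium channel genes moved less or were scarce. KCNH2 (hERG), which repolarizes cardiac muscle, held 12 to 31 counts per library and was called higher at 48 h (1.28, SE 0.341, adjusted p = 0.0186) and 96 h (1.13, SE 0.344, adjusted p = 0.0298). Its 48 h call was lost without DMSO replicate 1 (0.147), 48 h replicate 1 (0.115) or 48 h replicate 2 (0.0836), and its 96 h call without DMSO replicate 1 (0.251), 96 h replicate 1 (0.145) or 96 h replicate 2 (0.0632). KCNQ5, a subunit of the M-current, fell by 0.37 at 96 h (SE 0.102, adjusted p = 0.0168), from 59.1 and 58.7 CPM to 43.4 and 48.1 CPM. KCNAB3, a cytoplasmic beta subunit of voltage-gated potassium channels, fell by 0.43 at 96 h (SE 0.131, adjusted p = 0.0292), from 27.8 and 34.8 CPM to 23.4 and 22.5 CPM. The KCNQ5 call was lost without 96 h replicate 1 (0.165). The KCNAB3 call was lost without DMSO replicate 2 (-0.28, adjusted p = 0.191), 96 h replicate 1 (0.0851) or 96 h replicate 2 (0.108), with library totals alone (0.0686) and under DESeq2 (0.0866).

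HCN channels open on hyperpolarization and drive rhythmic firing, and HCN2 rose. It measured 54.6 and 62.1 CPM in DMSO, 78.8 and 70.4 after 12 h, 84.5 and 81.2 after 24 h, 101.7 and 87.0 after 48 h, and 76.9 and 83.4 after 96 h. The treated libraries were all above the DMSO libraries and peaked at 48 h. The log2 fold change was 0.36 at 12 h (adjusted p = 0.0564), 0.51 at 24 h (SE 0.103, adjusted p = 0.00522), 0.70 at 48 h (SE 0.102, adjusted p = 0.000129) and 0.46 at 96 h (SE 0.103, adjusted p = 0.0035). The 24 h call was lost without 24 h replicate 1 (0.0925) or 2 (0.0614), and the later calls held without each library. HCN3 was not called, and HCN4 held 12 counts over all libraries.

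Acid-sensing channels are proton-gated sodium channels, and 2 of the 3 expressed genes fell. That is 66.7% of only 3 genes, where 16.6% of all tested genes were called in either direction at 1 or more times. ASIC4, which gives little proton current on its own, had the largest fall of the 55 genes at 96 h. ASIC4 measured 13.4 and 18.0 CPM in DMSO, 8.05 and 7.12 after 12 h, 7.54 and 6.46 after 24 h, 6.12 and 6.54 after 48 h, and 3.75 and 4.07 after 96 h. The 12 and 24 h libraries overlapped each other, and both 96 h libraries were below all others. It fell by 1.02 (SE 0.183, adjusted p = 0.00185), 1.15 (SE 0.185, adjusted p = 0.000695), 1.28 (SE 0.191, adjusted p = 0.00014) and 1.99 (SE 0.207, adjusted p = 6.52e-07) on the log2 scale, the last a level 3.97-fold lower. The 12 h call was lost without 12 h replicate 2 (0.065), and the later calls held without each library in turn.

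ASIC1, the main proton-gated pore of central neurons, measured 34.7 and 41.4 CPM in DMSO, 23.6 and 24.6 after 12 h, 27.4 and 24.5 after 24 h, 29.1 and 26.9 after 48 h, and 25.4 and 25.3 after 96 h. No treated library reached a DMSO library, and the treated libraries lay between 23.6 and 29.1 CPM with no steady course. It fell by 0.65 (SE 0.120, adjusted p = 0.0025), 0.55 (SE 0.119, adjusted p = 0.00876), 0.43 (SE 0.118, adjusted p = 0.0215) and 0.58 (SE 0.119, adjusted p = 0.00178). The 12 h call was lost without 12 h replicate 1 (0.0753), and the 24 h call without DMSO replicate 2 (0.061), 24 h replicate 1 (0.0502) or 24 h replicate 2 (0.227). The 48 h call was lost without DMSO replicate 2 (0.146), 48 h replicate 1 (0.0701) or 48 h replicate 2 (0.234), with library totals alone (0.0557) and under DESeq2 (0.0664). The 96 h call held without each library. ASIC3 was not called, and ASIC2 had 0 counts in all libraries.

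Among the 8 TRP genes, TRPM5 and TRPV4 were called higher (25%, against 16.6% of all tested genes). TRPM5, a calcium-activated cation channel of taste cells, passed the level rule and the count filter through the 48 and 96 h groups, where it was high, so its rise is a description and supports nothing about the channel genes as a set. It measured 0.622 and 0.827 CPM in DMSO, 0.671 and 0.460 after 12 h, 0.502 and 0.978 after 24 h, 2.31 and 1.85 after 48 h, and 3.37 and 2.81 after 96 h. The 12 and 24 h libraries overlapped DMSO, and both later groups lay above all earlier libraries. These values rest on 8 and 7 counts in the DMSO libraries and on 36 and 20 at 96 h. The log2 fold change was 1.55 at 48 h (SE 0.437, adjusted p = 0.0261) and 2.13 at 96 h (SE 0.400, adjusted p = 0.000722). The 96 h call held without each library, and the 48 h call was lost without DMSO replicate 1 (0.155), DMSO replicate 2 (0.0582), 48 h replicate 1 (0.189) or 48 h replicate 2 (0.0897).

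TRPV4, an osmotically and mechanically gated calcium channel, rose at 96 h from 10.3 and 10.6 CPM to 13.9 and 16.4 CPM (0.52, SE 0.165, adjusted p = 0.0353). That call was lost without DMSO replicate 1 (0.147), DMSO replicate 2 (0.0556) or 96 h replicate 2 (0.205), and under DESeq2 (0.102). The abundant TRPM7 and TRPC4AP had log2 fold changes of -0.05 (95% interval -0.255 to 0.160) and -0.03 (-0.222 to 0.172) at 96 h. TRPC1, TRPM4, TRPV1 and TRPM2 were not called.

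**Figure D5:**
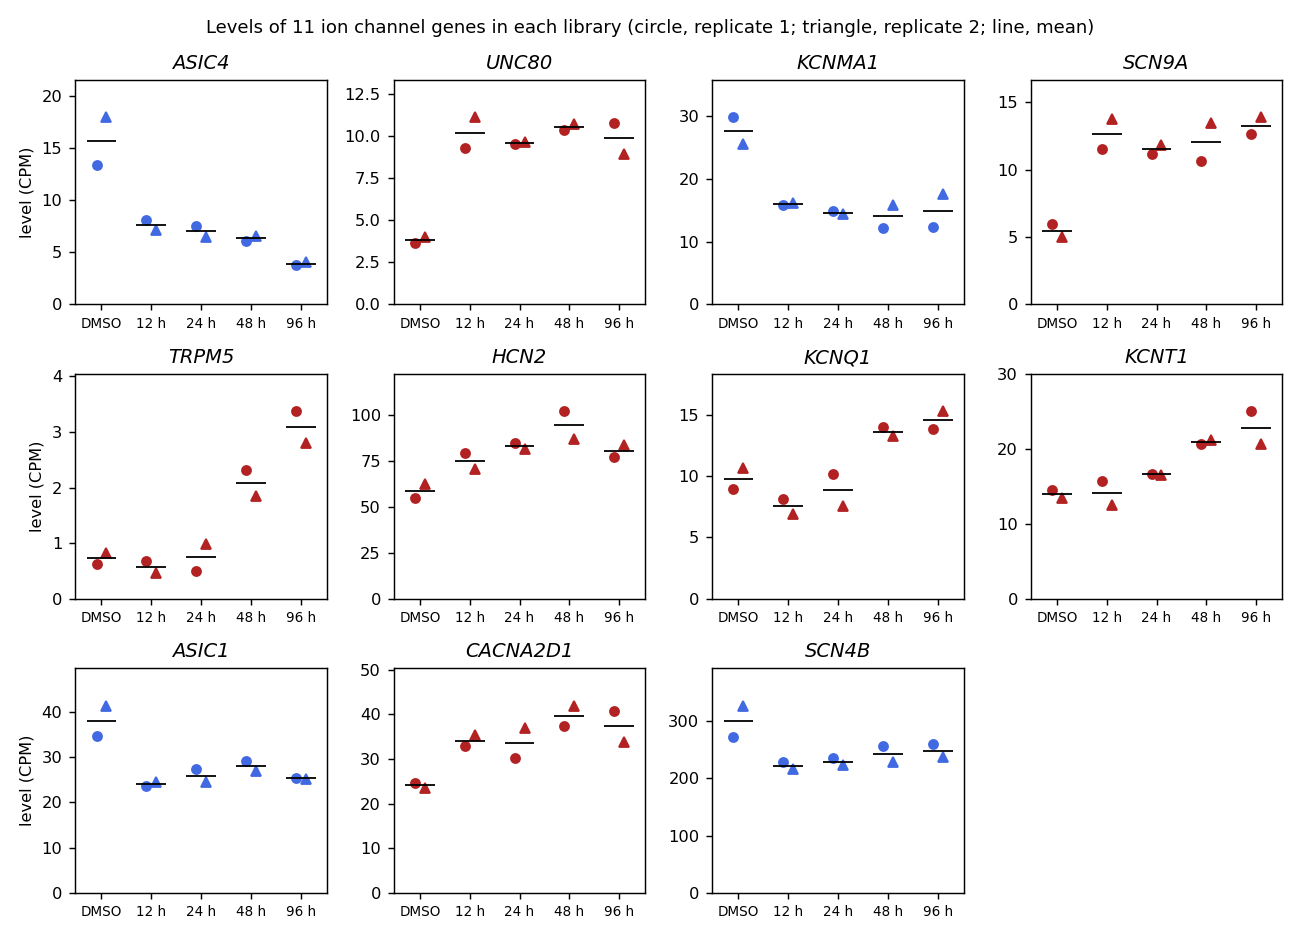
Level in CPM, on axes from 0, of 11 of the called ion channel genes with the smallest joint adjusted p in each of 10 libraries (circles, replicate 1; triangles, replicate 2; lines, group means; red, called higher; blue, called lower). UNC80 and SCN9A stand at their treated level from 12 h, with UNC80 at 9.28 and 11.1 CPM, whereas TRPM5 and KCNT1 leave the DMSO range later, TRPM5 at 48 h.

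Whether levels moved within the treatment was asked by comparing 96 h with 12 h. The DMSO levels do not enter this difference, but all 10 libraries share the estimate of spread and the adjustment. In that comparison 3 of the 55 genes were called higher and 1 lower, with a background of 2.39% and 1.74% of all tested genes and 4.13% together. Leaving out either DMSO replicate raised the number called from 4 to 8, and leaving out 12 h replicate 2 lowered it to 0. TRPM5 was higher by 2.44 (SE 0.439, adjusted p = 0.00161), KCNQ1 by 0.94 (SE 0.182, adjusted p = 0.00303) and KCNT1 by 0.71 (SE 0.146, adjusted p = 0.00492), and ASIC4 fell by 0.97 (SE 0.235, adjusted p = 0.0185). Without 12 h replicate 2 none of the 4 was called, with adjusted p of 0.0508 for TRPM5, 0.0817 for KCNQ1, 0.141 for KCNT1 and 0.0699 for ASIC4. KCNT1 was further lost without 96 h replicate 1 (0.0769), and ASIC4 without 12 h replicate 1 (0.206) or 96 h replicate 1 (0.099). UNC80 had a log2 difference of -0.03 between these times (adjusted p = 0.949).

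TRPM5 and KCNQ1 are neighbours on chromosome 11, TRPM5 on the minus strand at chr11:2404515-2423045 and KCNQ1 next to it on the plus strand. Of 15 tested genes within 300 kb of this pair, listed after the values were seen, 3 were higher and 1 lower at 96 h against 12 h, TRPM5 and KCNQ1 included. Of all tested genes, 2.39% were higher and 1.74% lower. TRPM5 and KCNQ1 were picked for their calls in this comparison, so their part in the count was fixed beforehand. The other calls were PHLDA2, an imprinted growth regulator, higher by 0.85 (adjusted p = 0.0423), and TSSC4, lower by 0.58 (adjusted p = 0.0285). PHLDA2 was lost without 12 h replicate 1 (0.31), 12 h replicate 2 (0.165), 24 h replicate 1 (0.0552), 24 h replicate 2 (0.0522), 96 h replicate 1 (0.0523) or 96 h replicate 2 (0.194), and TSSC4 without 12 h replicate 1 (0.0973), 12 h replicate 2 (0.269), 96 h replicate 1 (0.0708) or 96 h replicate 2 (0.133). CDKN1C, a cyclin-dependent kinase inhibitor, and the tetraspanin gene CD81 were not called there. IGF2, a growth factor gene in the same window that overlaps the antisense gene IGF2-AS, whose reads cannot be told apart from its own, was called lower against DMSO at all 4 times (-0.47, -0.48, -0.41 and -0.38, adjusted p from 0.00707 to 0.0138) and not at 96 h against 12 h (0.10, adjusted p = 0.653). Its 4 calls were each lost without DMSO replicate 2 (adjusted p = 0.104, 0.0851, 0.161 and 0.176). They were further lost at 12 h without 12 h replicate 1 or 2 (0.122 and 0.121), at 24 h without 24 h replicate 1 or 2 (0.0986 and 0.109), at 48 h without 48 h replicate 2 (0.221) and at 96 h without 96 h replicate 1 (0.139).

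The 38 channel genes not called ranged in log2 fold change from -0.84 (KCNG3) to 1.27 (KCNJ2) at 96 h, with 5 at an unadjusted p under 0.05 and a median of 0.135. KCNJ2, the Kir2.1 inward rectifier, had adjusted p = 0.0886 there, and KCNG3, a modifier subunit of Kv2 channels, 0.0507. KCNJ12 had -0.04 (95% interval -0.286 to 0.204). KCNJ2 averaged 0.644 CPM in DMSO and 1.75 CPM at 96 h, and the 95% interval of its change was 0.266 to 2.27. Its place among the channel genes rests on treated libraries, as do those of CACNA1C, KCNMB4 and SCN8A, so its rise is a description.

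The called channel genes spanned most of the range of levels of the uncalled ones. The mean level of the 11 genes called higher ran from 1.44 to 174.8 CPM with a median of 12.9, that of the 6 called lower from 8.10 to 248.6 with a median of 26.8, and that of the 38 others from 1.14 to 400.2 with a median of 10.6. Median exon GC content was 60.6% for genes called higher, 54.8% for genes called lower and 55.5% for the rest. The part of GC content in the calls was not tested, beyond the GC correction given with the alternatives.

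Genes that act with these channels were compared with all tested genes at 96 h against DMSO, of which 6.14% were called higher and 6.86% lower. There, 4 of 24 tested chloride channel genes were called higher (16.7%) and 0 lower, among them ANO1, the calcium-activated chloride channel (0.64, SE 0.108, adjusted p = 0.000234), and CFTR, the cyclic AMP-gated chloride channel (1.28, SE 0.276, adjusted p = 0.0026). Of 23 ion pumps and exchangers, 2 were higher (8.7%) and 0 lower. Of 20 intracellular and other calcium channel genes, 2 were higher (10%) and 1 lower (5%), with the endolysosomal channel MCOLN3 at 0.67 (SE 0.124, adjusted p = 0.000624). The 96 h calls of ANO1, CFTR and MCOLN3 held without each library in turn, which was mainly why these genes were named. It says nothing about the other calls of these lists, some of which were lost in such fits. Of 12 tested ligand-gated channel genes, 2 were higher (16.7%) and 1 lower (8.33%), and of 18 channel regulators and anchors 1 was higher (5.56%) and 0 lower. The medians of these 5 lists at 96 h were -0.00609, 0.117, 0.0136, 0.104 and 0.088, and that of all tested genes was -0.00826.

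Of the 11 genes of the REST corepressor list, 3 were called lower and 0 higher at 96 h (27.3%, against 6.86% of all tested genes lower), and their median was -0.0279. Of the 3, the demethylase gene KDM1A (-0.27, adjusted p = 0.0426) kept its call in 0 of the 10 fits that left out 1 library and the deacetylase gene HDAC2 (-0.35, adjusted p = 0.0259) in 5. REST itself, the repressor of neuronal genes, measured 138.9 CPM in DMSO and 138.7 at 96 h. RCOR2, a corepressor that bridges to KDM1A, was called lower at all 4 times, from 60.0 CPM in DMSO to 40.7 CPM at 96 h (-0.56, SE 0.120, adjusted p = 0.00261). The 96 h call of RCOR2 held without each library. Its 12 h call was lost without DMSO replicate 2 (0.0596), 12 h replicate 1 (0.115) or 12 h replicate 2 (0.104), its 24 h call without 24 h replicate 2 (0.146) and its 48 h call without 48 h replicate 2 (0.124).

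Markers of excitable cell types were present in part. Of 16 neuron markers 7 were tested and 5 had no count in any library (DCX, ELAVL4, GAP43, NEFM and SYT1). The summed level of the 16 ran from 232.5 to 256.6 CPM in DMSO, 232.3 to 242 after 12 h, 259.8 to 265.9 after 24 h, 306.2 in both libraries at 48 h, and 298 to 329.8 CPM at 96 h. At 12 h against DMSO, 1 of the 7 was called higher (14.3%, against 1.23% of all tested genes) and 2 lower (28.6%, against 1.92%). At 96 h against DMSO, 3 of the 7 were called higher (42.9%, against 6.14% of all tested genes), MAP2 among them, and 1 lower, NEFH, a neurofilament subunit (-0.42, adjusted p = 0.00905, lost without DMSO replicate 2 at 0.0624 and without 96 h replicate 1 at 0.105). Of 14 muscle markers, 3 were tested and 0 called at any time, with 0 at an unadjusted p under 0.05, and MYOD1, MYOG and MYH7 had no count. The summed muscle level was 6.66 to 11.2 CPM over the libraries. Endocrine, leukocyte and endothelial lists had 1, 1 and 0 tested genes. In bulk RNA, more cells of a type and more RNA per cell cannot be told apart, and the part of these markers in the channel changes was not tested.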

How the data were processed

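Poly(A) mRNA of HS-SY-II cells was sequenced in 10 libraries, 2 in each of 5 groups taken from the labels. The values are counts deposited by the authors, whole numbers per gene with no normalization. Per the submitters' processing notes, bcl2fastq, FastQC, Trim Galore, cutadapt, STAR and featureCounts were used with GRCh38. Not given in the sources used here are tool versions, gene annotation, counting strand and how multi-mapped reads were counted. Of 63140 identifiers, 62541 had a symbol in the gene name table. A gene counted as protein-coding when both GENCODE v29 and RefSeq call it so. Non-coding genes at the level (KCNQ1OT1, CACNA1G-AS1, KCNJ5-AS1, TRPC6P2) were left out. Positions come from GENCODE v29 on GRCh38 and promoter sequences from RefSeq on GRCh38.p14.

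Counts were tested in edgeR 4.0.16 under R 4.3.3 (filterByExpr with a count minimum of 10, TMM scaling, 1 mean per group over all 10 libraries, quasi-likelihood F test with 5 residual and 18.5 prior degrees of freedom, biological coefficient of variation 7.17%). All 55 channel genes were among the 16382 tested. A call is a Benjamini-Hochberg adjusted p under 0.05 over all tested genes. The SE is the log2 fold change over the square root of F, and intervals are 95%. Levels are TMM-scaled CPM, except that the rule for choosing genes used plain CPM. The script was tested on simulated data. All comparisons against DMSO share its 2 libraries. The 2 replicates are labelled biological, and with 1 cell line the p-values measure the spread between these cultures.

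The genes and lists were chosen with earlier results of these data known. The rule was to name all called genes and to give the 12 with the smallest joint adjusted p, a test of the 4 times together, by library. It also took the 2 most abundant genes per kb in each family and the 3 on each side of the level rule. Some genes that these rules select are not reported here by name, and they remain in the counts and medians. For other lists, up to 3 called genes were eligible, mainly those whose 96 h call held without each library being named. Lists covered channel regulators, pumps, intracellular calcium, ligand-gated and chloride channels, the REST corepressor, and markers of synovial sarcoma, neurons, muscle, endocrine cells, leukocytes and endothelium. Alternatives were RLE scaling, library totals, no filter, a filter of 5 CPM in 2 libraries, DESeq2 1.42.0, limma-voom (limma 3.58.1), a replicate block, a GC content offset, only the groups compared, an adjusted p under 0.01, each library left out, and DMSO replicate 2 with 96 h replicate 2 left out.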

Additional observations from a re-analysis of the deposited data

Results flagged for a closer look

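Between the first and the last time under WA-68, 4 channel genes differed by edgeR's test of 96 h against 12 h. The difference, 96 h minus 12 h on the log2 scale, was 2.44 for TRPM5 (adjusted p = 0.00161), 0.94 for KCNQ1 (adjusted p = 0.00303), 0.71 for KCNT1 (adjusted p = 0.00492) and -0.97 for ASIC4 (adjusted p = 0.0185). TRPM5, KCNQ1 and KCNT1 were not called at 12 or 24 h against DMSO, and ASIC4 was already lower at 12 h. TRPM5 entered the gene set through its late groups, with 0.565 CPM at 12 h and 3.09 CPM at 96 h, since it passed the level rule and the count filter through the 48 and 96 h groups, so its difference is a description. Without 12 h replicate 2 all 4 lost their call.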

How the results depend on the processing

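Over 55 channel genes and 5 comparisons there were 46 calls. Of these, 20 held without each library in turn, 36 held under the other 10 alternatives, 20 held under both, and 0 changed direction. TRPM5 and KCNH2 had a value in 8 of those 10 alternatives, so their held calls held under those 8 only. An adjusted p under 0.01 is not among the 10 and kept 5, 6, 7, 10 and 3 calls in the 5 comparisons. The number of channel genes called changed by over 1.5 times with a GC content offset, to 11 at 12 h (from 7) and 9 at 96 h against 12 h (from 4). It did so too with an adjusted p under 0.01, to 7 at 48 h (from 12) and 10 in the joint test (from 16). Leaving out 1 library gave 3 to 10 called at 12 h, 3 to 11 at 24 h, 6 to 13 at 48 h, 10 to 18 at 96 h, 0 to 8 at 96 h against 12 h and 12 to 17 in the joint test. The cause was not tested. A lone library of a group was then assumed to vary like the other groups. Fitting only the groups compared ended the calls of CACNA2D1 (adjusted p = 0.0742) and SCN4B (0.0716) at 24 h, ASIC1 at 48 h (0.0673), and KCNQ5 (0.118), KCNAB3 (0.0921), KCNH2 (0.0517) and TRPV4 (0.0651) at 96 h. A replicate block gave 7, 8, 12, 15 and 4 called in the 5 comparisons and 14 in the joint test, and ended none of the 46 calls. The labels do not pair the replicate numbers, and same-numbered libraries deviated together with correlations of -0.123 to 0.186. Crossing the numbers of the 48 h libraries in a block, chosen after seeing the data, gave 15 called at 48 h. Over all genes, the GC offset called 1256, 1399, 2491, 3272 and 1488 in the 5 comparisons and 3254 in the joint test, where the main analysis called 516, 589, 1539, 2129, 676 and 1786. An adjusted p under 0.01 called 183, 222, 643, 1133, 287 and 890. Leaving out both libraries that stood apart called 1139, 1123 and 1056 at 12 h, 24 h and 96 h against 12 h, and fitting only the groups compared called 288, 953 and 1266 at 24, 48 and 96 h. Single left-out libraries gave 102 to 768, 112 to 935, 420 to 1918, 1610 to 2463, 151 to 1117 and 1238 to 2163. Depth limits TRPM5 and KCNH2, with 4 to 36 and 12 to 31 counts per library. A level minimum of 0.5 or 2 CPM would have kept 64 or 46 genes.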
